A study of Mus musculus with 8 samples.

Results

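The regions described here are stretches of the mouse genome where TET1 was found in untreated cells and where no other TET1 region lay nearby. Joining all overlapping or adjoining peaks of the 6 deposited lists gave 137027 regions. A region was kept if it lay on chromosomes 1 to 19, had a peak in all 3 mock lists and stood 50000 bp or more from the nearest other merged region on both sides. This left 1525 isolated regions, which were 3.22% of the 47377 autosomal regions with a peak in all 3 mock lists. The other 45852 are called non-isolated. The members were chosen by the presence of mock peaks and by the distances between peaks, so mock presence, spacing and the uneven spread over chromosomes are given as descriptions without a test. Spacing of peaks says nothing about chromatin state, which was not measured.

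TET1 is a dioxygenase that oxidises 5-methylcytosine in DNA, the first step of active demethylation, and it is abundant in embryonic stem cells. Its CXXC domain favours CpG-rich DNA, and in these cells it is best known at CpG islands and gene starts, which often lie close together. R-loops are structures of an RNA-DNA hybrid and a displaced DNA strand. RNase H1 degrades the RNA of such hybrids and Nuclease S1 cuts single-stranded nucleic acid.

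The samples were mouse embryonic stem cells with an HA tag on endogenous TET1 (mESHA-Tet1), described as E14TG2a in the design and as strain C57BL/6N in the labels. Cells of 3 samples were permeabilised and mock treated, and cells of the other 3 were incubated for 20 min with RNase H1 (0.2 U/ul) and Nuclease S1 (0.05 U/ul) together, which is called nuclease-treated here. The agent label of these 3 names RNAse H1 only, and no sample received either enzyme alone. TET1 was precipitated with an HA antibody after crosslinking with disuccinimidyl glutarate and formaldehyde, and each library was compared by the authors' peak caller with the pooled input of its condition. No label states separate cultures for the replicates, and the p-values below therefore cover the spread among these 6 samples alone, which may be technical. Lists held 73602 to 83601 peaks in mock and 62161 to 74404 in nuclease-treated libraries, at a genome-wide background of 2.131 to 2.253 and 1.929 to 2.239 fragments. Coverage below is the number of fragments at a peak's summit divided by this background, written as times background. Every test of 3 against 3 libraries was an exact two-sided permutation test, which cannot go below p = 0.1. Presence and width of a peak depend on the pooled input that the libraries of a condition share. Tests of recovery and width therefore treat as separate libraries that have their input in common.

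Isolation was rare among regions of every degree of reproducibility. Of all 134739 autosomal regions, 4582 (3.40%) met the distance requirement, against 3.55% of regions found in a single list and 3.05% of regions found in all 6. The median distance to the nearest region was 72379 bp at isolated regions, with a highest value of 443935 bp, and 1183 bp at non-isolated ones. The farther neighbour of an isolated region lay at a median of 131768 bp. A distance of 100000 bp or more separated 362 members from any other region, and 43 were 200000 bp or more away. The threshold cut through a continuous range. The 3 regions just inside it, on chromosomes 17, 6 and 15, had neighbours at 50074, 50124 and 50176 bp, and mean mock coverages of 16.7, 8.002 and 8.91 times background. The 3 just outside it, on chromosomes 14, 7 and 4, had neighbours at 49961, 49928 and 49910 bp, and mean mock coverages of 9.77, 34.2 and 7.26 times background.

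The 5 members farthest from any neighbour were mostly of ordinary strength. The first, chr14:93787224-93787742, had 5.33, 5.38 and 11.7 times background in mock replicates 1, 2 and 3 and 9.02, 10.4 and 9.38 after nuclease treatment. Mock replicate 3 stood above the other mock libraries there, and the groups overlapped. The others, chr7:33349509-33350370, chr16:39984288-39985067, chr14:111507831-111508477 and chr5:48763504-48763919, averaged 4.55, 9.34, 6.18 and 10.2 times background in mock. They had a peak in 1, 3, 3 and 0 nuclease-treated lists, respectively.

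Isolated regions made up very different shares of each chromosome's TET1 regions. On chromosome 14 they were 7.60% of the regions found in all 3 mock lists (97 regions), on chromosome 13 7.08% and on chromosome 12 6.62%. On chromosome 11, which carried 38.7 such regions per Mb, they were 0.911% (43 regions). Chromosomes 17 and 7 followed with 1.69% and 1.77%. Per length the spread was narrower, from 3.53 isolated regions per 10 Mb on chromosome 11 to 7.75 on chromosome 14, taking the end of the last region as the length. Across the 19 chromosomes the share fell with the density of regions (Pearson's r = -0.929, Spearman's rho = -0.982). Both quantities come from the same spacing of peaks, so the relation is a description of the rule. Chromosome 4 departed from the pattern by density, with 7.33 isolated regions per 10 Mb at 23.8 regions per Mb.

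**Figure D1:**
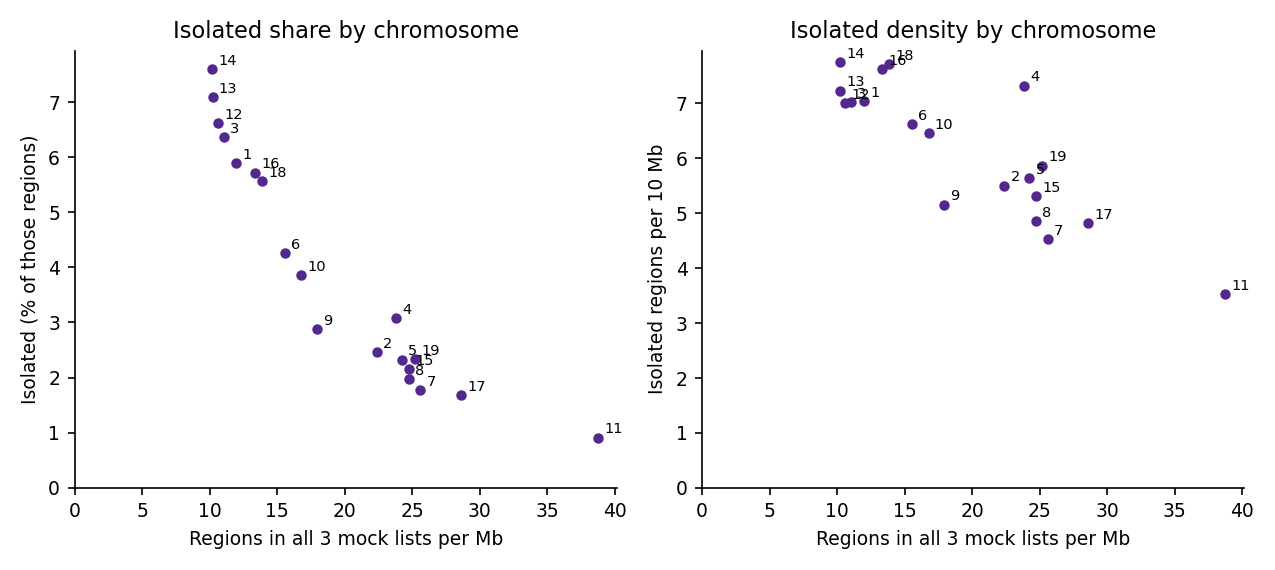
Isolated regions on each autosome against the number of regions found in all 3 mock lists per Mb. Left, isolated regions as a percentage of those regions, right, isolated regions per 10 Mb; points are chromosomes. Chromosome 11 lies at the lower right (0.911%) and chromosome 14 at the upper left (7.60%).

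Isolated TET1 regions were somewhat weaker and narrower than the rest in untreated cells. Their median summit coverage was 8.88, 8.96 and 9.85 times background in mock replicates 1, 2 and 3, against 10.7, 10.8 and 10.3 at non-isolated regions. Replicate 3 was thus the highest mock library at isolated regions and the lowest at the others. The mean over the 3 mock libraries was under 10 times background at 57.2% of isolated and 47.4% of non-isolated regions, and 20 or more at 169 isolated regions (11.1%) and 13.1% of the non-isolated. Merged regions had a median width of 731 bp when isolated and 834 bp when not. Only 36 isolated regions (2.36%) were 2 kb or wider, against 8.03% of non-isolated ones. At equal mock strength isolated regions were narrower in each of 10 strength bins, for example at 5.91 to 6.67 (537 against 632 bp) and at 15.4 to 20.8 times background (1057 against 1165 bp), and by the least at 10.4 to 12.3 times background (790.5 against 804 bp). The merged width depends on how many lists have a peak, so these widths are descriptions.

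The 3 widest members were stronger than the median member. The widest, chr3:38783876-38787451, spanned 3576 bp. Its coverage was 17.8, 17.9 and 20.6 times background in the mock libraries and 13.3, 11.4 and 16.5 in the nuclease-treated ones, so all 3 treated libraries were below all 3 mock libraries. The next, chr5:43623652-43626816 with 3165 bp, went from 25.2 ± 6.36 to 12.7 ± 1.43 times background (SD, n = 3 each). The third, on chromosome 18 with 2979 bp, went from 18.7 ± 1.58 to 11.8 ± 0.773 (SD, n = 3 each).

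The background under isolated regions was low in the input as well. MACS2 estimates a local background from the input and never lets it fall below the genome-wide level. In mock libraries 63.7 ± 1.04% of isolated regions sat at that floor, against 22.4 ± 0.433% of non-isolated regions (SD, n = 3 each). In nuclease-treated libraries the shares were 46.5 ± 2.95% and 8.08 ± 0.565% (SD, n = 3 each) of the regions that had a peak. Values above 2 times that floor were found at 1.51 ± 0.114% of isolated regions in mock and at 8.69 ± 1.14% in treated libraries (SD, n = 3 each). The same shares at non-isolated regions were 3.62 ± 0.201% in mock and 19.1 ± 1.77% in treated libraries (SD, n = 3 each). The higher share in treated libraries was thus not particular to isolated regions. At the 886 isolated regions with a peak in all 6 lists, the median local background was 1.00 times the genome-wide level in each mock library and 1.103, 1.14 and 1.12 in the nuclease-treated libraries (exact permutation p = 0.1, adjusted p = 0.143 over 10 tests by Benjamini-Hochberg). The 3 libraries of a condition share 1 pooled input, so this difference is in effect unreplicated. The difference of 0.119 was near 0 at an isolation distance of 100 kb and without peaks of high local background (0.00018), and 0.300 with a stricter q threshold.

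Most isolated regions had a peak after nuclease treatment, and the shares were near those of all reproducible regions. Nuclease-treated replicate 1 had a peak in 1157 of the 1525 isolated regions (75.9%, exact 95% interval 73.6 to 78.0), where 79.4% of all 47377 regions did. Replicate 2 had one in 1111 (72.9%, 70.5 to 75.1; background 74.9%), and replicate 3 in 1246 (81.7%, 79.7 to 83.6; background 81.5%). The intervals cover counting error only. Replicate 3 recovered the most and replicate 2 the fewest, an order also seen at non-isolated regions. Non-isolated regions weighted to the mock strengths of the isolated ones were recovered at 75.7%, 70.7% and 78.1%. Isolated regions were thus recovered 1.98 ± 1.70 percentage points more often (SD, n = 3 lists), higher in 3 of 3 lists by 0.215 to 3.61 points. An exact sign-flip test over 3 lists gave p = 0.25, the smallest it can reach. The sign of this small difference was not stable: it was -2.23 points with a stricter q threshold, -0.659 with an isolation distance of 25 kb and -0.106 when strength was measured by the −log10 q. It was 8.47 points when a peak had to cover 50% of the bases under the mock peaks.

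By the number of nuclease-treated lists, 886 isolated regions (58.1%, exact 95% interval 55.6 to 60.6) had a peak in all 3, where 61.4% of all regions did. A further 325 (21.3%) had a peak in 2 lists and 206 (13.5%) in 1. Among non-isolated regions these shares were 19.6% and 12.2%, and at equal mock strength 21.7% and 14.6%. No peak in any nuclease-treated list was found at 108 isolated regions (7.08%, exact 95% interval 5.85 to 8.49), against 6.64% of all regions and 8.24% of non-isolated regions of equal mock strength. The share without any nuclease-treated peak was thus near the background. By strength, it was 15.7% in the weakest of the 10 strength bins, 3.29% at 10.4 to 12.3 times background and 0.654% in the strongest bin, against 20.4%, 4.74% and 0.0739% of non-isolated regions in the same bins.

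A measure that the choice of members did not fix is recovery in a mock library left out of the choice. Among isolated regions with a peak in 2 mock lists (1773, 1776 and 1823 regions for the 3 pairs), peaks were present in the left-out mock library at 86.0%, 85.9% and 83.7% for replicates 1, 2 and 3. In the nuclease-treated libraries they were present at 69.4%, 66.3% and 75.8%. All 3 treated libraries lay below all 3 mock libraries, a difference of -14.7 points (exact permutation p = 0.1, adjusted p = 0.143 over 10 tests). It became -32.2 points with a stricter q threshold and -11.2 points with lists of equal length. Peaks of a condition were called against the 1 pooled input it shares, so a difference between the inputs is not replicated here. Non-isolated regions of equal strength gave 82.5 ± 4.39% in mock against 68.8 ± 3.88% in treated libraries (SD, n = 3 each), a difference of -13.7 points (exact permutation p = 0.1). These gaps differed by -0.982 points (exact permutation p = 0.7, adjusted p = 0.778), less in size than the spread between libraries, which was 3.07 points (SD) among the mock libraries. Its sign turned under 4 other settings and on leaving out nuclease-treated replicate 1, where it was 0.0159.

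The loss of peaks was largest at isolated regions of 6 to 10 times background. At 6 to 8 times background in the mock pair that chose them, 77.5 ± 5.17% had a peak in the third mock library and 56.1 ± 6.63% in the treated libraries (SD, n = 3 each). At 8 to 10 times background the values were 90.2 ± 2.65% and 70.0 ± 5.53%. At 10 to 15 times background they were 98.5 ± 0.464% and 86.3 ± 2.89%. Nearly all strong isolated regions had a peak in both groups: at 20 times background or more, 99.4 ± 0.553% and 98.7 ± 0.301% did (SD, n = 3 each). Non-isolated regions showed the same pattern of peak loss. Treated minus mock was -18.1 points at 6 to 8, -19.3 at 8 to 10, -13.6 at 10 to 15 and -0.905 at 20 times background or more. Peak presence does not measure coverage. At isolated regions of 20 times background or more with a peak, the left-out mock libraries had a median coverage of 24.5 ± 1.13. The treated libraries had 15.5 ± 0.231 (SD, n = 3 each). The treated-to-mock ratio was 0.631 there, 0.762 at 10 to 15 and 0.866 at 8 to 10 times background. At non-isolated regions it was 0.646, 0.834 and 0.929. Regions without a peak are left out of these ratios.

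**Figure D2:**
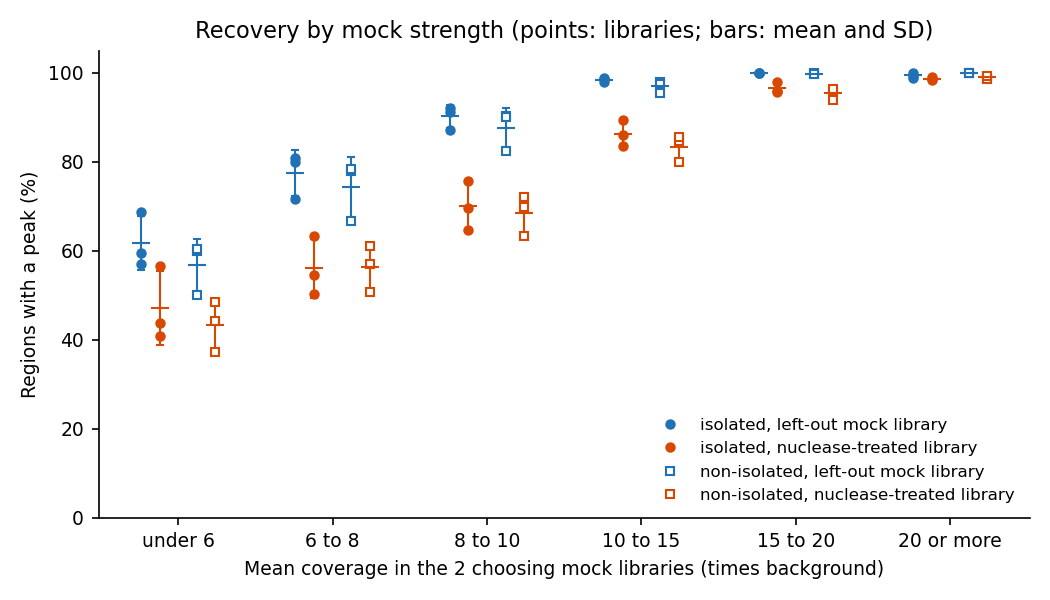
Percentage of regions with a peak against their mean coverage in the 2 mock libraries that chose them, for isolated (filled circles) and non-isolated regions (open squares). Blue, the left-out mock library, orange, nuclease-treated libraries; points are libraries, bars the mean and SD of 3. Treated minus mock is -21.4 points at isolated regions of 6 to 8 times background and -0.744 points at 20 times or more.

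Recovery did not move steadily with distance at equal mock strength. For regions with a neighbour within 2 kb, the left-out mock libraries recovered 83.5 ± 4.71% and the nuclease-treated libraries 71.2 ± 3.61%. At 5 to 10 kb the values were 80.8 ± 3.88% and 64.2 ± 4.74%, and at 25 to 50 kb 83.4 ± 2.72% and 66.8 ± 5.08%. Isolated regions at 50 to 100 kb gave 85.2 ± 1.099% and 70.2 ± 4.88%, and those at 100 kb or more gave 85.1 ± 1.92% and 71.4 ± 4.89% (SD, n = 3 in each case). Treated minus mock was -12.2 points within 2 kb, -16.6 at 5 to 10 kb and -13.7 at 100 kb or more. Differences between these classes were not tested.

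**Figure D3:**
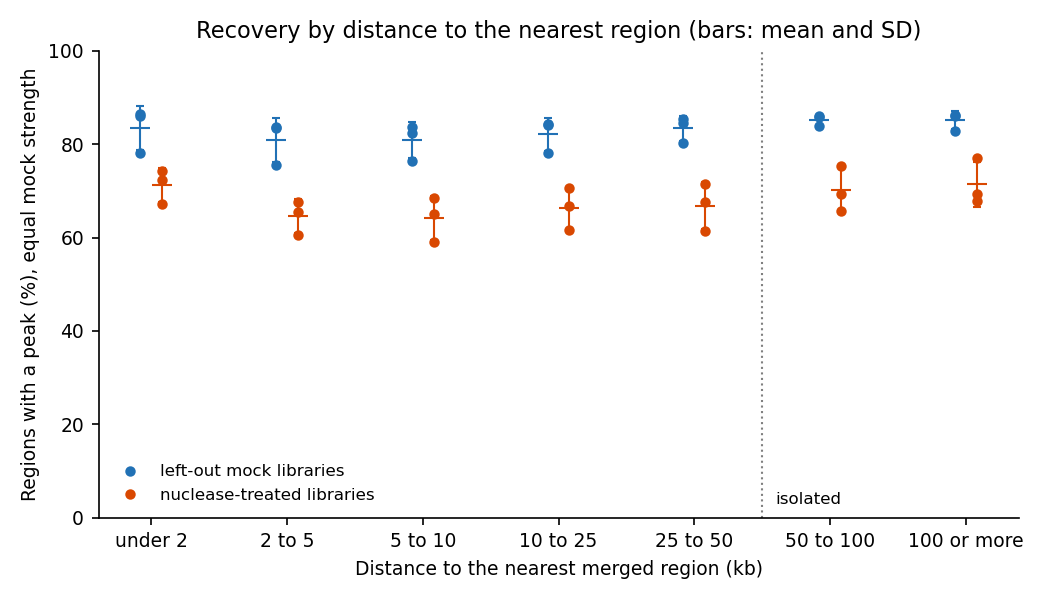
Percentage of regions with a peak, at the mock strengths of the isolated regions, by distance to the nearest merged region. Points are libraries, bars the mean and SD of 3; classes right of the dotted line are isolated. Nuclease-treated means lie between 64.2% and 71.4% and left-out mock means between 80.8% and 85.2%.

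TET1 coverage at isolated regions was lower in every nuclease-treated library. At the 886 isolated regions with a peak in all 6 lists, which requires a peak of both groups alike, the median coverage was 11.5, 11.2 and 12.7 times background in mock replicates 1, 2 and 3. It was 9.02, 9.33 and 9.38 in the nuclease-treated libraries. The groups did not overlap, and the treated mean was 0.783 of the mock mean, a difference of -2.56 (exact permutation p = 0.1, adjusted p = 0.143). The size depended on the regions counted: the difference was -6.07 with a stricter q threshold, without overlap. Over all members with a peak in the library it was -0.936. There the mock medians covered all 1525 members, which mock peaks chose, and the treated medians only 1111 to 1246 of them. The value of -0.936 is therefore a description. At single regions the 3 treated values all lay below the 3 mock values in 372 of the 886 (42.0%), near the 44.8% of all autosomal regions with a peak in all 6 lists. The treated mean was lower than the mock mean at 733 of them (82.7%), against 84.4% of non-isolated regions. The median ratio of treated to mock coverage was 0.783 at isolated and 0.785 at non-isolated regions. At equal strength the log2 coverage of isolated minus non-isolated regions differed between the groups by -0.03 (exact permutation p = 0.9, adjusted p = 0.9). The sign of that difference turned without mock replicate 3 (0.0031) and with a stricter q threshold (0.0093).

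Peaks at isolated regions were also narrower in every treated library. The median number of bases under peaks at the same 886 regions was 765.5, 774 and 789 bp in mock and 655.5, 623.5 and 695.5 bp after treatment. All treated libraries were below all mock libraries, a difference of -118 bp (exact permutation p = 0.1, adjusted p = 0.143). Over all members with a peak in the library it was -34.3 bp, a description, since mock peaks chose the members and fewer had a treated peak. At equal strength the change in width differed from that of non-isolated regions by 16.3 bp (exact permutation p = 0.6, adjusted p = 0.75). Among all 1525 members, the number at 10 times background or more was 648, 630 and 736 in the mock libraries and 340, 376 and 393 in the nuclease-treated libraries. At 20 times background or more the means were 169 ± 28.7 and 42.7 ± 7.57 regions (SD, n = 3 each). Since mock peaks chose these members, the 2 counts carry no test. At 10 times background or more, the mean share of members was 44.0% in mock and 24.2% in treated libraries. At non-isolated regions it was 52.8% and 33.1%. At 20 times or more the shares were 11.1% and 2.80% of members, and 13.3% and 2.99% of non-isolated regions.

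**Figure D4:**
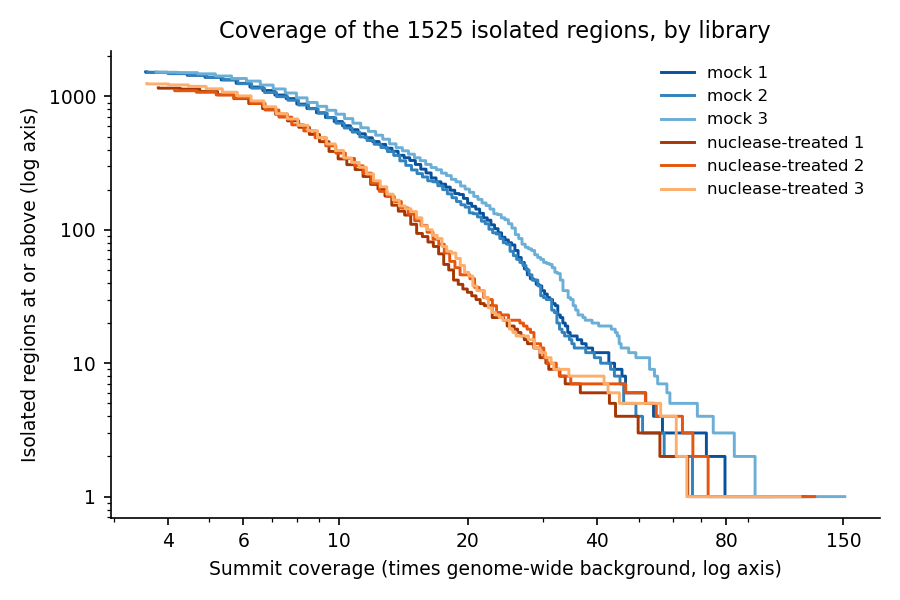
Number of the 1525 isolated regions whose summit coverage reached a given value, by library, both axes logarithmic. Blue lines are mock libraries, orange lines nuclease-treated libraries. At 10 times background the mock lines lie between 630 and 736 regions and the treated lines between 340 and 393.

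Of the 10 strongest isolated regions, 6 kept 0.845 to 0.981 of their mock coverage after treatment and 3 kept 0.543 to 0.648. The remaining 1 had no peak in any treated list. The first, chr4:64284501-64284900, had 127, 102 and 151 times background in mock and 122, 129 and 119 after treatment, so the groups overlapped. The second, chr19:31923673-31924034, had 79.5, 66.8 and 93.4 in mock and 65.1, 72.6 and 64.8 after treatment. The third, chr17:76612822-76613969, had 56.8, 57.3 and 83.5 and then 49.9, 66.9 and 61.2. In each of these 3 regions at least 1 treated library exceeded a mock library, and mock replicate 3 was the highest library. The regions chr14:110920139-110920722, chr14:42637449-42638560 and chr1:41387008-41388184 averaged 65.9, 54.8 and 48.5 times background in mock and 60.2, 49.0 and 47.6 after treatment. These last 5 regions, whose mock local background was at most 1.04 times the genome-wide level, kept 0.845 to 0.981 of their mock coverage. By contrast, chr12:20317721-20319319, chr7:114352592-114354532 and chr4:145426755-145427493, with local backgrounds of 3.03, 1.69 and 2.48 times the genome-wide level, kept 0.590, 0.648 and 0.543. The region chr4:64284501-64284900 was an exception, with a ratio of 0.972 at a local background of 1.96. These 10 were ranked by the mock coverage that enters the ratio, and they do not stand for strong members in general. Among members of 30 times background or more, the 26 with a local background above the genome-wide level had a median ratio of 0.609. The 9 at that level with a peak in all 6 lists had 0.871.

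The last of the 10 strongest was chr14:62667760-62668053, the narrowest isolated region at 294 bp. It had 51.9, 46.1 and 58.2 times background in the mock libraries, with no peak in any nuclease-treated list. A region without a peak has no coverage or local background in that list, so how much signal remained there cannot be told. This region stood alone, since only 2 of the 108 isolated regions without a nuclease-treated peak reached 15 times background. The other of the pair, chr7:91837746-91838643, had 13.3, 10.3 and 21.6 times background, highest in mock replicate 3. The next 3 averaged 13.7 ± 0.902 (chromosome 18), 12.3 ± 3.97 (chr4:84191152-84191760) and 11.6 ± 1.17 times background (chr9:91459219-91459569; SD, n = 3 each). The 108 had a median mock coverage of 7.27 times background and a median width of 461 bp, against 11.7 and 902.5 bp for the 886 found in all 6 lists.

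Members were then split by local background, a split chosen after seeing the data. In the mock lists 854 members (56.0%) had a mean local background at the genome-wide level and 671 (44.0%) above it; among non-isolated regions only 17.3% were at that level. Members at the genome-wide level were weaker (median 8.001 against 12.1 times background) and narrower (666.5 against 827 bp). Among members of 20 to 30 times background, the 24 at the genome-wide level had a median treated-to-mock ratio of 0.815, with medians of 23.5, 20.2 and 29.3 times background in the mock and 18.998, 20.7 and 20.8 in the treated libraries. The 106 above that level with a peak in all 6 lists had a ratio of 0.595, with medians of 23.1, 23.1 and 24.6 and then 13.8, 13.7 and 14.5. In this band the treated libraries overlapped the mock libraries in the first class and lay below them in the second. At 15 to 20 times background the first class did not overlap either, with medians of 15.98, 14.8 and 20.2 in mock and 13.3, 12.96 and 13.4 after treatment, and the ratios were 0.803 and 0.648. At 10 to 15 times background the ratios were 0.805 and 0.716, again without overlap in the first class. In every band the mock libraries that set it also enter the ratio, which alone can lower it. The ratios and overlaps by band are therefore descriptions.

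Measured with a left-out mock library and at equal strength, coverage was lower in the treated libraries in both classes of isolated regions. At the genome-wide level the mean log2 coverage was 3.52, 3.43 and 3.82 in mock replicates 1, 2 and 3 and 3.32, 3.40 and 3.39 after treatment, a difference of -0.22 (exact permutation p = 0.1, adjusted p = 0.133 over 16 tests of this split). Above it the values were 3.66, 3.66 and 3.67 and then 3.23, 3.25 and 3.26, a difference of -0.42 (exact permutation p = 0.1, adjusted p = 0.133). In the first class the groups overlapped at an isolation distance of 100 kb (-0.19, exact permutation p = 0.3), with a stricter q threshold (-0.25, p = 0.2) and without peaks of high local background (-0.19, p = 0.2), while in the second they did not. Mock replicate 3 stood apart in the first class and matched the other mock libraries in the second. The difference between the 2 classes was 0.20 on the log2 scale (exact permutation p = 0.3, adjusted p = 0.343), with overlapping groups. Leaving out 1 library gave 0.14 without mock replicate 1 (exact permutation p = 0.8), 0.15 without mock replicate 2 (p = 0.8) and 0.23 without mock replicate 3 (p = 0.2, the smallest possible there). The difference was 0.19 without treated replicate 1 (exact permutation p = 0.4), 0.15 without treated replicate 2 (p = 0.6) and 0.20 without treated replicate 3 (p = 0.4). The classes were thus not shown to differ. At non-isolated regions the same difference between classes was 0.01 (exact permutation p = 1).

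Within the class above the genome-wide level, the treated libraries lay further below mock at isolated than at non-isolated regions of equal mock strength. The log2 coverage of isolated minus non-isolated regions was -0.02, -0.04 and 0.09 in the mock libraries and -0.12, -0.11 and -0.07 in the treated ones. The groups differed by -0.11 (exact permutation p = 0.1, adjusted p = 0.133 over 16 tests), and by -0.10 without mock replicate 3. At the genome-wide level the corresponding difference was 0.08 (exact permutation p = 0.4, adjusted p = 0.427). The classes match the local background only as at or above 1 level, and the part of the background's height within the upper class was not tested. For recovery the split gave no stable difference. Treated minus mock was -13.7 points at the genome-wide level and -16.6 above it, and the difference of 2.88 points (exact permutation p = 0.1) became -0.129, -0.925 or -3.99 without mock replicate 1, 2 or 3. For isolated minus non-isolated regions above that level, recovery differed by -3.73 points (exact permutation p = 0.1), and by 0.583 without mock replicate 3. Leaving out a mock library also leaves a single one to choose the regions.

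**Figure D5:**
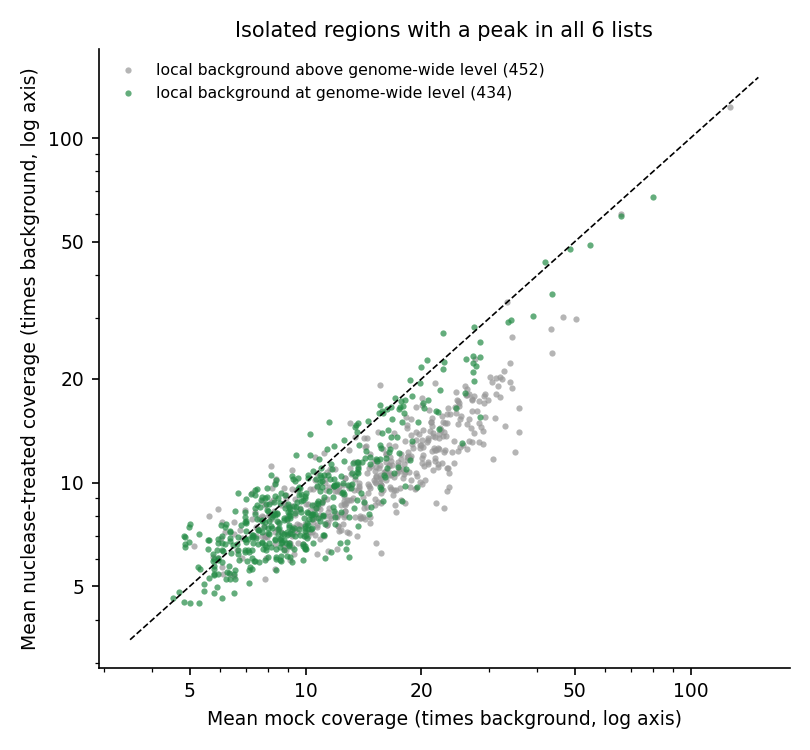
Mean coverage of the 3 nuclease-treated against the 3 mock libraries at the 886 isolated regions with a peak in all 6 lists, both axes logarithmic; the dashed line marks equal values. Green, 434 regions with mock local background at the genome-wide level, grey, 452 above it. At 20 to 30 times background in mock the median ratio of treated to mock is 0.815 for green and 0.595 for grey points, while single points of the colours overlap. The band is set by the same mock libraries as the ratio, which alone can lower it.

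In the opposite direction, isolated regions of nuclease-treated cells were mostly present in mock cells. Among isolated regions with a peak in 2 nuclease-treated lists (1263, 1325 and 1148 for the 3 pairs), the mock libraries had a peak in 88.7%, 89.1% and 89.1%. The left-out treated libraries had one in 79.7%, 75.9% and 87.6%. All 3 mock libraries lay above the treated libraries, with treated minus mock at -7.87 points (exact permutation p = 0.1, adjusted p = 0.143). Once all lists were cut to the same number of peaks, it was -2.72 points (exact permutation p = 0.3) and the groups overlapped. They also overlapped at an isolation distance of 100 kb (-6.49 points, exact permutation p = 0.4). A peak in all 3 nuclease-treated lists and in no mock list was found at 16 isolated regions, 2.80% of the 571 autosomal regions with that pattern. This was near the isolated share of all autosomal regions (3.40%) and of those with a peak in all 3 treated lists (2.99%).

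Summits of different mock libraries lay farther apart at isolated regions than elsewhere. Over the 886 regions found in all 6 lists, the summits of 2 mock libraries lay a median of 68.2 bp apart (62.0 to 73.5 over 3 pairs), against 57.7 bp (54.0 to 60.0) at non-isolated regions. Between 2 treated libraries the distances were 83.3 bp and 81.0 bp, and between a mock and a treated library 77.1 bp and 73.6 bp. The distances between groups thus lay between those within groups. Among regions with 1 peak in every list (816 isolated, 21181 non-isolated), isolated regions had the larger distance for each kind of pair. These were 66.0 against 52.3 bp between mock libraries, 80.2 against 72.0 bp between treated ones and 74.1 against 65.7 bp between groups. Strength was not equalised in these comparisons, and they carry no test.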

How the data were processed

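TET1 ChIP-seq peak lists of 3 mock and 3 nuclease-treated libraries were used; the 2 pooled inputs were not analysed here on their own. Per the submitters' processing notes MACS2 2.1.1 was used together with bedtools 2.25.0, deepTools 2.4.3, Picard, Bowtie2 2.2.8 and SAMtools 1.3.1, on build mm9. Of their parameters, nothing is given in the sources used here. For every peak, a deposited list gives the authors' fold enrichment over local background (a ratio), −log10 p and −log10 q, a score that is the −log10 q scaled and cut to a whole number, and the summit position. The score was not used. Genes at these positions are not reported here.

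Summit coverage and local background were solved from the deposited fold and p with MACS2's formulas (pseudocount 1, Poisson tail, whole coverages up to 700 fragments, tolerance 0.001 in −log10 p), which left 1 peak of all lists unmatched. The most frequent local background is the genome-wide one. Median summits held 16 to 18 fragments, so single peaks are imprecise, and total depth is unknown.

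Equal strength means direct weighting of non-isolated regions to 10 quantile bins of isolated regions by mock coverage (5 bins by distance or local background class). The 10 results compared between groups were adjusted together, and the 16 of the local background split together. The procedures were tested on simulated data. Python 3.11.15, numpy 2.4.6, pandas 2.3.3 and scipy 1.17.1 were used. The members, lists and named regions (10 strongest, 5 strongest without a nuclease-treated peak, 5 farthest, 3 widest, 3 on each side of the threshold) were chosen with earlier results of these data known. Alternatives covered isolation distance, neighbours, merging, q threshold, list length, local background, overlap, strength bins and measure, the replicate block and leaving out each library. The test planned for the number of members at 10 times background is not given, because mock peaks chose the members. It still counts among the 10 results adjusted together, so the adjusted p-values over 10 tests include it.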

Additional observations from a re-analysis of the deposited data

How the results depend on the processing

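Of 376 recomputed values, 357 kept their direction, their side of the threshold or their size, 8 moved and 11 reversed; with 3 libraries against 3 no test can pass 0.05, so keeping its side says little. The number of isolated regions became 3934 with a distance of 25 kb, 362 with 100 kb and 2925 when neighbours had to be found in at least 2 lists. The recovery of isolated minus non-isolated regions of equal strength in the nuclease-treated lists (1.98 points) became -0.659 at 25 kb, -2.23 with a stricter q threshold, 7.07 without peaks of high local background, 8.47 with 50% overlap and -0.106 with strength by −log10 q. The difference of recovery gaps (-0.982 points) became 0.161 at 100 kb, 0.110 with lists of equal length, 3.45 without peaks of high local background and, added after seeing the data, 0.376 with strength and local background class weighted together. The difference of coverage effects (-0.03) became 0.0093 with a stricter q threshold. The causes were not tested. Leaving out 1 library gave -2.51 to 0.0159 points for the difference of recovery gaps and -0.0673 to 0.0031 for that of coverage effects. For recovery at isolated regions by local background class the difference between classes ranged from -3.99 to 3.68 points. For recovery of isolated minus non-isolated regions above the genome-wide level (-3.73 points) it ranged from -4.52 to 0.583, and only leaving out mock replicate 3 turned it. The recovery gap at isolated regions (-14.7 points) ranged from -17.5 to -12.6, and was -32.2 with a stricter q threshold and -11.2 with lists of equal length.

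Replicate numbers are shared by the groups, but same-numbered libraries did not deviate together at the 29094 regions found in all 6 lists (r = 0.0120, -0.0046 and 0.0367). Mock replicate 2 correlated more with treated replicate 1 than with its own number. With a replicate block the recovery gap at isolated regions stayed at -14.7 points, with an exact sign-flip p = 0.25, the smallest possible for 3 pairs, and no call changed. A median summit of 16 to 18 fragments limits what any single region can show.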
